A study of Homo sapiens with 6 samples.

Results

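The 8 subunits of the cytosolic chaperonin TRiC (also called CCT) are described here, taken as the genes whose symbol in the deposited table is TCP1, CCT2, CCT3, CCT4, CCT5, CCT6A, CCT7 or CCT8. All 8 were found among 22258 gene symbols, and all 8 were among the 14583 genes tested. RNA was sequenced from SW480, a human colon cancer cell line with truncated APC. There were 3 samples with ALDH1B1 knockdown (KD) and 3 control samples (SCR, genotype given as WT), numbered 4, 5 and 6 in each group, with no other treatment. The sources used here do not give the method of knockdown, or whether the cells were a clone or a pool. No label says that the samples were separate cultures, so a p-value here reflects the spread among these 6 samples alone, possibly a technical one.

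TRiC is an ATP-driven folding machine built of a pair of stacked rings, each holding 1 copy of the 8 related subunits. It encloses newly made proteins that cannot reach their native fold alone. Actin and tubulin are its best known clients, and many proteins with WD40 propellers, such as G protein beta subunits and the mitotic activator CDC20, also pass through it. Prefoldin hands clients to the ring, and phosducin-like proteins act with it as cofactors. Because every subunit has a fixed place, the complex needs all 8 of them in equal number.

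Values are in RPM, reads scaled to sequencing depth. Depth was about 20320000 to 28560000 reads per sample, so each subunit value rests on about 2323 to 9315 reads. The knockdown was seen in the target. ALDH1B1, the mitochondrial aldehyde dehydrogenase aimed at (chromosome 9), had 19.99, 20.4 and 23.2 RPM in KD samples 4, 5 and 6, against 34.1, 39.6 and 36.7 RPM in SCR samples 4, 5 and 6. On the log2 scale KD minus SCR was -0.80 (SE 0.0926; adjusted p = 1.63e-07 by limma). An exact permutation test, two-sided, can reach no lower than p = 0.1 with 3 samples a group, and it gave that value. The epithelial keratins KRT8, KRT18 and KRT19 lay between 766 and 2815 RPM in every sample. Of the other colon epithelium markers, EPCAM (204 to 210 RPM in KD, 101 to 116 RPM in SCR), CDH1 (45.4 to 55.0 in KD, 9.86 to 15.6 in SCR) and VIL1 (20.5 to 23.0 in KD, 5.44 to 6.50 in SCR) were higher in all KD samples, and CDX2 (28.5 to 35.2 in KD, 52.3 to 57.3 in SCR) was lower. PTPRC, CD3E, COL1A2 and PECAM1, markers of leukocytes, fibroblasts and endothelium, have no row among the symbols used. CD68 had 0.245 to 0.434 RPM in KD and 0.948 to 1.54 RPM in SCR, VWF and PDGFRB stayed under 1 RPM, HBB stood at 2.37 RPM in KD sample 4, under the value of 3 reads in the rest, and COL1A1 reached 6.65 RPM. The 13 mitochondrial mRNAs took 6.34% to 6.43% of depth in KD samples and 3.60% to 4.31% in SCR samples, and the part of these markers in the results was not tested. Scaling without mitochondrial genes left the 5 falls below in place.

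Most TRiC subunit mRNAs were modestly lower in KD cells, and the subunits did not move as a block. TCP1, CCT5, CCT3, CCT2 and CCT6A fell, by 0.50 to 0.19 on the log2 scale. CCT7 rose by 0.22, and CCT4 and CCT8 did not pass the test. A gene is said to have risen or fallen where limma gave an adjusted p under 0.05 over all genes tested. By that rule 6 of 8 subunits changed, against 43.2% of all tested genes. The 5 that fell stand against 20.3% of tested genes, and the 1 that rose against 22.9%. The subunits are abundant, and among the 3199 tested genes that average 50 RPM or more, 34.7% fell and 16.3% rose. The median log2 fold change was -0.25 over the 8 subunits, -0.11 over those abundant genes and -0.01 over all genes tested. Groups did not overlap for 7 of 8 subunits, against 51.9% of tested genes. KD was lower for 5 of them, against 25.5%, and higher for 2, against 26.4%.

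**Figure D1:**
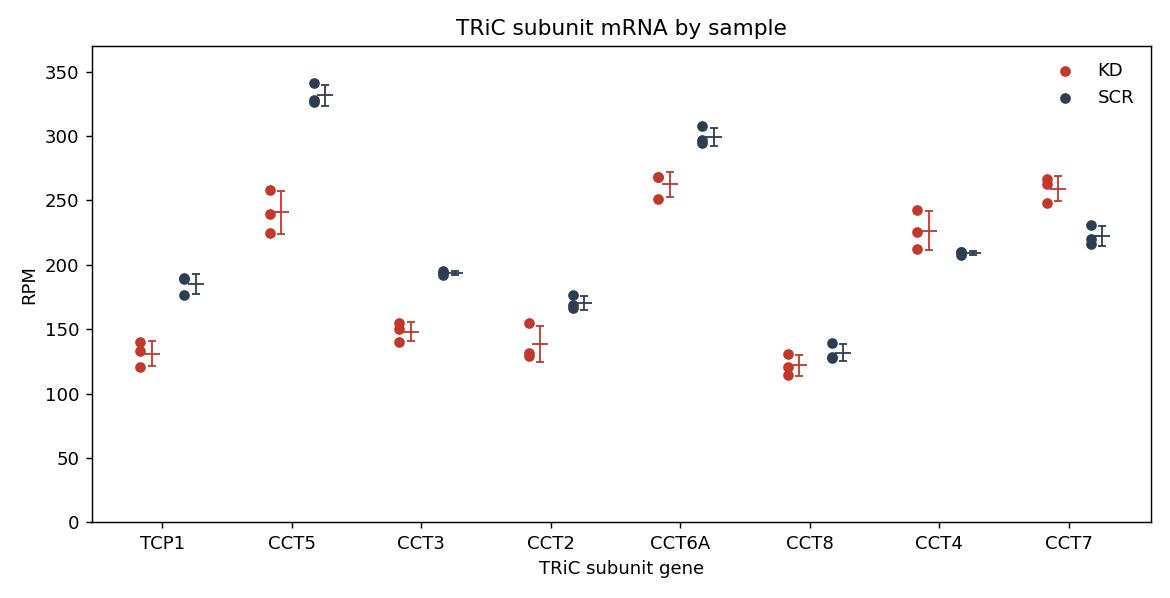
Level of each TRiC subunit mRNA in RPM, with KD samples in red left of SCR samples in dark blue (points), beside the mean and SD over 3 samples; subunits run from the largest fall to the rise. TCP1, CCT5, CCT3, CCT2 and CCT6A have all KD points under all SCR points, CCT8 overlaps, and CCT4 and CCT7 have all KD points above.

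TCP1, the alpha subunit after which the family is named, fell most. It lies on chromosome 6, at 160199530 to 160210782 as the table gives it, on a genome build that it does not name. TCP1 had 132.8, 120.4 and 139.7 RPM in KD samples 4, 5 and 6, against 176.3, 189.8 and 188.8 RPM in SCR samples 4, 5 and 6. All KD samples were lower than all SCR samples, with means of 131 ± 9.77 RPM in KD and 185 ± 7.53 RPM in SCR (SD, n = 3 each), 70.8% of control. The log2 fold change was -0.50 (SE 0.0763, adjusted p = 8.72e-06 by limma).

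CCT5, the epsilon subunit, is known in medicine from a mutation that causes a hereditary sensory neuropathy (chromosome 5, 10250033 to 10266525). CCT5 had 239.3, 224.6 and 257.9 RPM in KD samples 4, 5 and 6, against 326.2, 341.1 and 328.1 RPM in SCR samples 4, 5 and 6. The groups were far apart, with 241 ± 16.7 RPM in KD and 332 ± 8.11 RPM in SCR (SD, n = 3 each). The log2 fold change was -0.47 (SE 0.0745, adjusted p = 1.69e-05 by limma), or 72.5% of control.

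CCT3, the gamma subunit (chromosome 1, 156278759 to 156337665), had 154.5, 139.8 and 150.1 RPM in KD samples 4, 5 and 6, against 192.2, 195.4 and 193.6 RPM in SCR samples 4, 5 and 6. Again no KD sample reached the lowest SCR sample. CCT3 had a log2 fold change of -0.39 (SE 0.0728, limma adjusted p = 0.000116). CCT2, the beta subunit, in which mutations cause a congenital blindness, lies on chromosome 12 at 69979114 to 69995351. It had 154.4, 131.3 and 129.0 RPM in KD samples 4, 5 and 6, against 168.4, 166.6 and 176.8 RPM in SCR samples 4, 5 and 6. KD sample 4 lay closest to the SCR samples, but the groups did not overlap. CCT2 had a log2 fold change of -0.31 (SE 0.0787, limma adjusted p = 0.00254).

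CCT6A, the zeta subunit expressed in most tissues, changed least of those that fell (chromosome 7, 56119323 to 56131683). CCT6A had 268.2, 251.1 and 268.0 RPM in KD samples 4, 5 and 6, against 296.7, 307.5 and 294.4 RPM in SCR samples 4, 5 and 6. The log2 fold change was -0.19 (SE 0.0721, adjusted p = 0.0339 by limma). The call was lost without KD sample 4 or 5 (adjusted p = 0.0554 and 0.15) and without SCR sample 4 or 5 (adjusted p = 0.0799 and 0.118). CCT8, the theta subunit, lies on chromosome 21 at 30428126 to 30446119, and its raised level is known to protect protein folding in the nematode Caenorhabditis elegans. It had 120.7, 114.3 and 130.6 RPM in KD samples 4, 5 and 6, against 127.6, 139.2 and 128.4 RPM in SCR samples 4, 5 and 6. KD sample 6 lay above SCR samples 4 and 6, so the groups overlapped. CCT8 had a log2 fold change of -0.11 (95% interval -0.27 to 0.04, limma adjusted p = 0.239).

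Both subunits on chromosome 2 were at least as high in KD as in SCR cells. CCT7, the eta subunit (73460548 to 73480150), had 266.4, 248.3 and 262.7 RPM in KD samples 4, 5 and 6, against 220.0, 230.7 and 216.2 RPM in SCR samples 4, 5 and 6. All KD samples were above all SCR samples, with means of 259 ± 9.58 RPM in KD and 222 ± 7.53 RPM in SCR (SD, n = 3 each). CCT7 rose by 0.22 on the log2 scale (SE 0.0724, limma adjusted p = 0.0153), a call lost without KD sample 4 (adjusted p = 0.064) or SCR sample 4 (adjusted p = 0.0583).

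CCT4, the delta subunit (chromosome 2, 62095224 to 62115940), is the subunit mutated in a rat model of sensory neuropathy. CCT4 had 242.2, 212.2 and 225.3 RPM in KD samples 4, 5 and 6, against 207.6, 209.9 and 210.0 RPM in SCR samples 4, 5 and 6. The groups did not overlap, but KD sample 5 lay just above the SCR samples. The log2 fold change was 0.11 (95% interval -0.04 to 0.26, limma adjusted p = 0.221). CCT4 passed the test when samples were scaled without mitochondrial genes (0.17, adjusted p = 0.0237) or by quantiles (0.16, adjusted p = 0.0209).

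In yeast TCP1, CCT2, CCT4 and CCT5 bind ATP more tightly than CCT3, CCT6A, CCT7 and CCT8. Of the first 4 subunits 3 fell and 0 rose, and of the other 4 subunits 2 fell and 1 rose, so falls were found in both sets. KD sample 5 had the lowest KD value for 7 of 8 subunits, and SCR sample 5 the highest SCR value for 6 of 8. The spread was wider among KD samples, with a coefficient of variation of 3.70% to 10.2% over the subunits in KD and 0.643% to 4.92% in SCR.

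Summed over the 8 subunits, the level was 1579, 1442 and 1563 RPM in KD samples 4, 5 and 6, against 1715, 1780 and 1736 RPM in SCR samples 4, 5 and 6. The KD mean was 87.6% of the SCR mean. In bulk RNA, fewer cells with the message and less of it per cell cannot be told apart. Without CCT4 and CCT7 the sum of the other 6 subunits was 1042 ± 52.6 RPM in KD and 1312 ± 26.2 RPM in SCR (SD, n = 3 each), 79.4% of control. The sum of CCT4 and CCT7 was 486 ± 24.2 RPM in KD and 431 ± 7.94 RPM in SCR.

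The share of each subunit in the summed RPM was also taken. CCT7 made up 17.0% ± 0.220 of the summed RPM in KD and 12.7% ± 0.264 in SCR, and CCT4 made up 14.8% ± 0.474 in KD and 12.0% ± 0.179 in SCR (SD, n = 3 each). CCT5 held 15.7% ± 0.686 in KD and 19.0% ± 0.132 in SCR, and TCP1 held 8.57% ± 0.321 in KD and 10.6% ± 0.301 in SCR. CCT3 held 9.69% ± 0.0935 in KD and 11.1% ± 0.119 in SCR. CCT6A kept a similar share, 17.2% ± 0.214 in KD and 17.2% ± 0.191 in SCR. The shares of CCT2 and CCT8 overlapped between the groups. Shares need no scaling between samples, and no test was run on them.

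**Figure D2:**
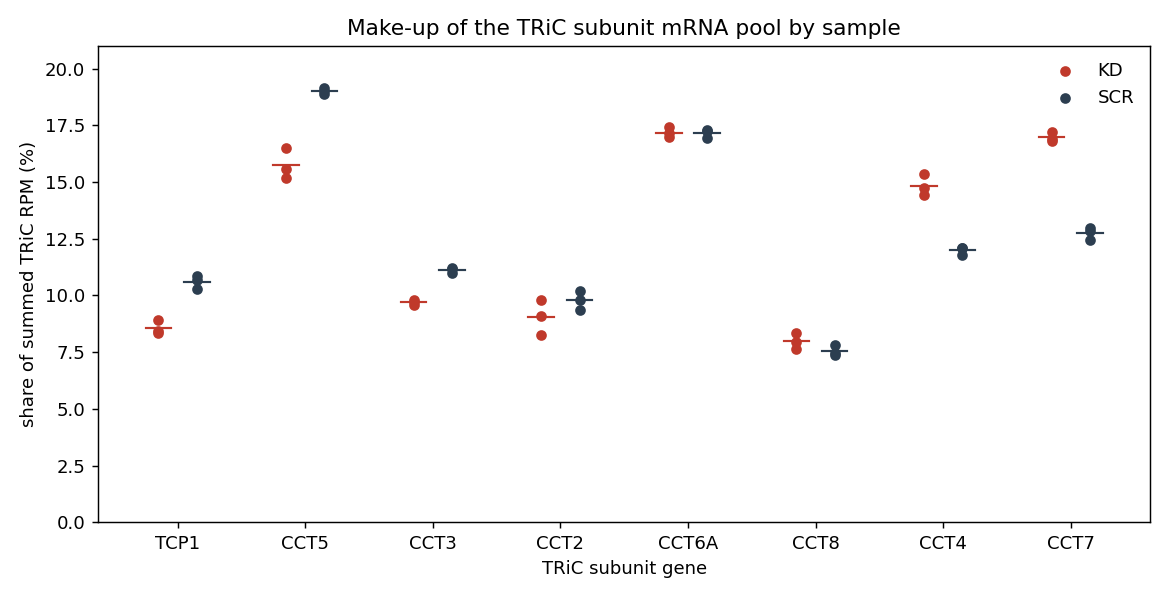
Share of each subunit in the summed TRiC RPM of a sample, in percent, with KD samples in red left of SCR samples in dark blue (points) and bars at the mean of 3 samples. CCT7 and CCT4 held more of the pool in all KD samples, and TCP1, CCT5 and CCT3 held less.

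Levels were also set per kilobase of the principal GENCODE transcript, so that subunits could be compared with each other. In KD cells CCT7 was highest with 135 ± 5.0 RPM per kb, followed by CCT6A with 96.5 ± 3.61 and CCT4 with 89.9 ± 5.97 (SD, n = 3). CCT6A and CCT4 overlapped in their sample ranges. CCT3, CCT2 and CCT5 came next with 68.9 ± 3.50, 67.7 ± 6.89 and 65.5 ± 4.55 RPM per kb, without a difference beyond their spread, then CCT8 with 60.8 ± 4.08, whose samples overlapped those of all 3, and TCP1 was lowest with 52.4 ± 3.91. In SCR cells CCT7 and CCT6A led with 116 ± 3.93 and 110 ± 2.57 RPM per kb. CCT5 and CCT3 followed with 90.3 ± 2.21 and 90.1 ± 0.756, then CCT2 and CCT4 with 83.6 ± 2.68 and 83.0 ± 0.533, and within each of these pairs the samples overlapped. TCP1 had 74.0 ± 3.01 and CCT8 was lowest with 65.7 ± 3.23. The order depends on the length used, since with the union of all exons CCT4 ranked 1 in KD and 2 in SCR cells.

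The 3 subunits not called as falls lie among genes that mostly rose. This grouping rests on the threshold. CCT8 changed by -0.11 (95% interval -0.27 to 0.04) and CCT6A, called as a fall, by -0.19 (95% interval -0.34 to -0.04). Within 5 Mb of CCT7, 59 of 74 other tested genes rose and 0 fell, and their median log2 fold change was 0.43. Around CCT4, 28 of 38 rose and 4 fell (median 0.40), and around CCT8, 18 of 34 rose and 3 fell (median 0.22). The medians around the other 5 subunits ran from -0.15 near TCP1 to 0.11 near CCT6A, which fell. The part of position in the subunit values was not tested.

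Set against its own neighbourhood, each subunit was lower. The log2 fold change minus the median of the neighbours was -0.21 for CCT7, -0.29 for CCT4, -0.33 for CCT8 and -0.37 for CCT3, the lowest. The fold changes themselves ran from -0.50 to 0.22. All 8 subunits were below their neighbours' median, as were 6840 of 13686 tested genes with at least 10 neighbours and 68.1% of those that average 50 RPM or more. A difference at least as low as that of CCT7 was found for 22.5% of all such genes and 30.7% of the abundant ones. CCT7 had the smallest difference of the 8 subunits, so all 8 pass this cutoff by construction. No test was run on the difference from the neighbours.

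**Figure D3:**
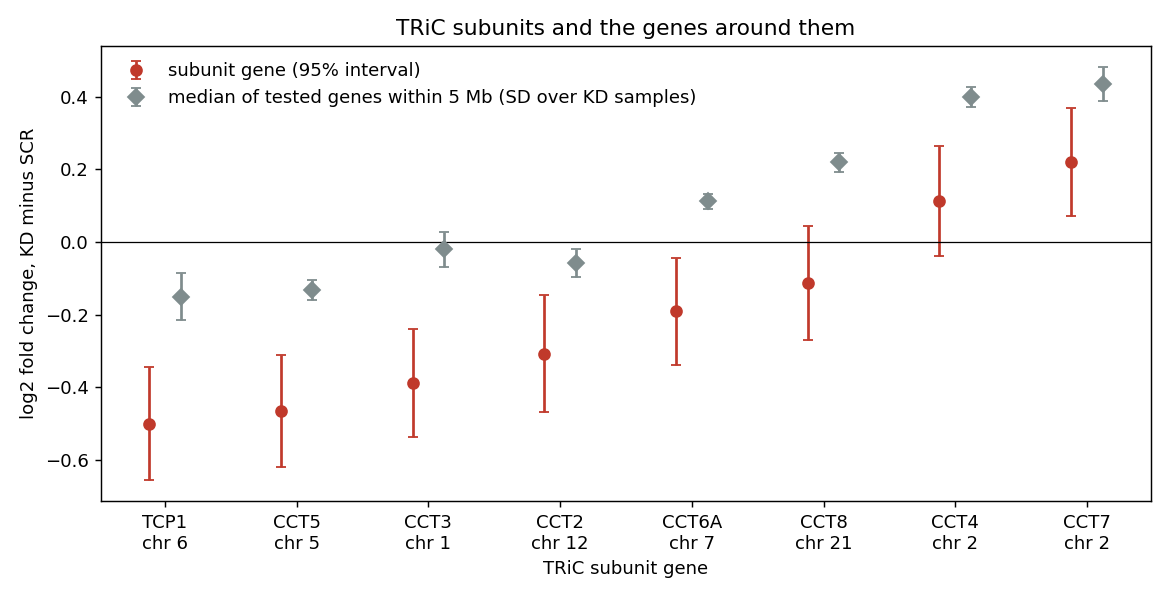
log2 fold change, KD minus SCR, of each subunit (red circles, 95% interval from limma) and the median over the tested genes within 5 Mb of it (grey diamonds, SD over the 3 KD samples), with the chromosome under each name. Each circle lies under its diamond, and the diamonds of CCT8, CCT4 and CCT7 lie at 0.22, 0.40 and 0.43.

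Several subunits start next to a gene read the other way, which gives a close comparison. TCP1 and MRPL18, a protein of the large mitochondrial ribosomal subunit, start 62 bases apart in the table. MRPL18 fell to 24.3 ± 1.96 RPM in KD, against 41.0 ± 1.81 RPM in SCR, a log2 fold change of -0.76 (SE 0.0888). On the other side ACAT2, a thiolase of cholesterol synthesis whose 3′ end overlaps that of TCP1 by 616 bases, fell by 0.31 on the log2 scale (limma adjusted p = 0.00449). The library was strand-specific, but no source used here says whether counting used strand, so reads in the overlap may be shared.

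CCT5 starts 23 bases from FAM173B, which had 13.5 ± 0.0645 RPM in KD and 13.5 ± 1.08 RPM in SCR, a log2 fold change of 0.01. CCT6A starts 25 bases from PSPH, the last enzyme of serine synthesis, which had 42.5 ± 1.93 RPM in KD and 36.9 ± 3.08 RPM in SCR (limma adjusted p = 0.0578). PSPH passed as a rise under all 4 other scalings (adjusted p = 0.00197 to 0.00782) and without SCR sample 5 (adjusted p = 0.0479). SUMF2, on the other side of CCT6A, rose by 0.22, a call lost without any 1 of 4 samples (KD 4 or 5, SCR 5 or 6). Whether a subunit differs from its partner was not tested.

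Around the chromosome 2 subunits the nearest genes rose. PRADC1, which starts 181 bases from CCT7 on the other strand, rose to 8.14 ± 0.128 RPM in KD, against 4.89 ± 0.362 RPM in SCR, a log2 fold change of 0.74. FBXO41, an F-box protein best known from brain, lies beyond the other end of CCT7 and rose to 64.0 ± 7.92 RPM in KD, against 32.0 ± 2.83 RPM in SCR. COMMD1, a copper handling and sorting protein that overlaps the start of CCT4 by 82 bases, rose by 0.40 on the log2 scale, and FAM161A, a ciliary protein, rose by 0.88. C1orf61, beside CCT3, rose by 0.48 on the log2 scale, a call lost without KD sample 5 or under quantile normalization. The other nearest tested genes, FRS2 and RAB3IP at CCT2, C1orf85 at CCT3, CTD-2256P15.4 at CCT5, and USP16 and MAP3K7CL at CCT8, had log2 fold changes of -0.23 (C1orf85) to 0.38 (MAP3K7CL) and did not pass the test. Of these, USP16 passed as a rise under 3 of the 4 other scalings, and C1orf85 passed as a fall under 2 of them and without KD or SCR sample 6, while COMMD1 lost its call under quantile normalization.

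Promoter sequences are shown for the largest fall, shared with a gene that fell with it, for CCT3, which also fell, and for CCT7, which rose. They are RefSeq windows in GRCh38.p14, read 5′ to 3′ on the gene's strand and ending 1 base before its start. The TCP1 stretch runs only to the RefSeq start of MRPL18, so it is the 209 bases between the 2 genes. Capitals mark CGGAAG or its complement CTTCCG, the core bound by ETS factors.
TCP1, chr6:159789603-159789811, minus strand: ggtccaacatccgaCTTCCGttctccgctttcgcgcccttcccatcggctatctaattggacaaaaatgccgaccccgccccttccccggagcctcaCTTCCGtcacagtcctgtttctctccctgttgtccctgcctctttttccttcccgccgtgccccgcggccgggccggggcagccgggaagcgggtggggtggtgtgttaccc
CCT3, chr1:156338293-156338542, minus strand: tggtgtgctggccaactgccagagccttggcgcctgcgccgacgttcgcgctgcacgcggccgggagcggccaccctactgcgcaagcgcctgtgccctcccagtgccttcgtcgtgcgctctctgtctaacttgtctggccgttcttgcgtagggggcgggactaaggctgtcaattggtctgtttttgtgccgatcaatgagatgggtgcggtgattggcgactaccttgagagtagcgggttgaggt
CCT7, chr2:73234058-73234307, plus strand: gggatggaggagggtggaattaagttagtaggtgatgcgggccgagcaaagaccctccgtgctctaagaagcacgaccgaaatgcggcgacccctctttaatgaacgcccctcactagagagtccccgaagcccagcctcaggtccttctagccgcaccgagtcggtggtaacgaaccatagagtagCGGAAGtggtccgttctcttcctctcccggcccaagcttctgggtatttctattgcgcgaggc

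The TCP1 stretch holds 2 such cores, 195 and 112 bases before its start, CCT7 holds 1 at 63 bases, and the CCT3 stretch holds none. Windows of 300 bases, 250 before and 50 after the start, were given for 7 of the 8 subunits, and for some genes more than 1. CCT2 and CCT4 had 2 each. A subunit counts where any of its windows matches, while the shares over all windows count each window by itself. Among these 7 subunits CGGAAG was found on either strand for TCP1, CCT2, CCT5, CCT7 and CCT8, against 19.5% of all 35116 windows. The box CCAAT was found for TCP1, CCT2, CCT3 and CCT8, against 34.6%, and GGGCGG for TCP1, CCT2, CCT3, CCT7 and CCT8, against 15786 of the windows. GAANNTTC, a pair of facing units of the heat shock element, was found for TCP1 and CCT2, against 6.77%. CACGTG, the E-box that MYC binds, was found for none of the 7, against 7.26%. The motif searched as CGGAAG was present in subunits that fell and in CCT7, which rose. A match describes the letters and is not evidence of binding.

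Related sequences could take reads from the subunits. The table lists 8 pseudogenes of TRiC subunits, and a share of its low values are not whole reads, so reads may have been divided. The 3 CCT6 pseudogenes together had 13.6 RPM in KD and 8.60 RPM in SCR, equal to 5.17% and 2.87% of CCT6A. CCT8P1 had 9.31 ± 0.269 RPM in KD and 9.87 ± 1.38 RPM in SCR, 7.64% and 7.49% of CCT8. The pseudogenes of TCP1, CCT5 and CCT7 came to less than 1% of their genes. CCT6A and CCT8 are therefore the less certain values.

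Counts in the lists of related genes stand beside 20.3% of all tested genes that fell and 22.9% that rose, and 34.7% and 16.3% of those that average 50 RPM or more. Prefoldin and phosducin-like cofactors had 3 of 9 tested members that fell and 1 that rose, near these shares, with a list median log2 fold change of -0.03. PFDN2, a prefoldin subunit of the beta type, fell to 18.0 ± 1.56 RPM in KD, against 25.4 ± 0.708 RPM in SCR, a log2 fold change of -0.50 (SE 0.095). PFDN6, also of the beta type, changed by -0.38 and PDCL, a phosducin-like folding partner of G protein beta, by -0.25, a call lost without 4 of the 6 samples (KD 5 or 6, SCR 4 or 5). PDCL3, a phosducin-like protein tied to actin and tubulin folding, rose by 0.32, a call lost without KD sample 6 or SCR sample 4. The other prefoldin subunits PFDN1, VBP1, PFDN4 and PFDN5 did not pass the test.

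Other chaperonin genes had 2 of 6 tested members that fell and 1 that rose, against 20.3% and 22.9% of all tested genes, with a list median of -0.19. HSPD1, the chaperonin of the mitochondrial matrix and a distant relative of TRiC, fell to 526 ± 27.9 RPM in KD, against 685 ± 19.7 RPM in SCR, a log2 fold change of -0.38 (SE 0.0753, limma adjusted p = 0.000205). Its lid HSPE1 had 144 ± 28.4 RPM in KD and 160 ± 4.37 RPM in SCR and did not pass. CCT6B, the zeta paralogue best known from testis, rose but stayed low, with 1.51 ± 0.584 RPM in KD and 0.634 ± 0.265 RPM in SCR. That call was lost without KD sample 6 (adjusted p = 0.0671). BBS12, a chaperonin-like protein of the Bardet-Biedl complex, changed by -0.65 (limma adjusted p = 0.0304), a call lost when any KD sample, or SCR sample 4 or 5, was left out. BBS12 was low too, with 1.27 ± 0.0615 RPM in KD and 1.99 ± 0.0374 RPM in SCR. BBS10 of the same complex had 10.2 ± 0.0662 RPM in KD and 11.9 ± 0.547 RPM in SCR (limma adjusted p = 0.102, but 0.00781 under quantile normalization).

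Of 13 actin and tubulin genes, the classic clients, 9 fell and 0 rose (1 rose under quantile normalization), against 20.3% and 22.9% of all tested genes and 34.7% and 16.3% of the abundant ones, with a list median log2 fold change of -0.32. ACTG1, cytoplasmic gamma actin, fell to 1131 ± 104 RPM in KD, against 1503 ± 82.3 RPM in SCR, a log2 fold change of -0.41. TUBA1A, an alpha tubulin, changed by -0.54, and the beta tubulins TUBB6 and TUBB2A by -0.40 and -0.39. ACTB missed the threshold with -0.22 (limma adjusted p = 0.0539), and TUBB4B averaged 707 RPM in KD and 708 RPM in SCR. Tubulin genes are alike in sequence, so reads may be divided among them.

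The cofactors that act on tubulin after TRiC, and genes tied to them, did not pass the test. Of the 7 genes in this list, TBCA, TBCB, TBCC, TBCD, TBCE, TBCEL and ARL2, 0 fell and 0 rose by limma. Of all tested genes 20.3% fell and 22.9% rose. An unadjusted p under 0.05 was found for 0 of the 7, while 43.2% of all tested genes passed even with adjustment. TBCD and TBCEL rose when samples were scaled without mitochondrial genes or by the upper quartile, and TBCC fell under quantile normalization. The log2 fold changes ran from -0.20 (TBCC) to 0.19 (TBCEL).

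Of 17 other tested clients 7 fell and 2 rose, against 20.3% and 22.9% of all tested genes. Among abundant genes the shares were 34.7% and 16.3%, but many of these clients, VHL among them, average less than 50 RPM. CDC20, the activator of the anaphase-promoting complex, fell to 125 ± 7.33 RPM in KD, against 180 ± 9.60 RPM in SCR, a log2 fold change of -0.53. The mitotic kinase PLK1 changed by -0.37. VHL, the tumour suppressor whose folding depends on TRiC, had 30.7 ± 0.235 RPM in KD and 18.1 ± 1.30 RPM in SCR. It rose by 0.76 on the log2 scale. Genes around VHL and the other list members were not looked at, and the part of position in their values was not tested.

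The R2TP and prefoldin-like list covers a complex that assembles other large complexes, with TTI1, TTI2 and TELO2 beside it. In this list 5 of 11 genes fell (TTI1 among them) and 1 rose, against 20.3% and 22.9% of all tested genes. The list median was -0.21. Only 3 fell when KD sample 4 or 5, or SCR sample 4 or 5, was left out, and 3 rose under scaling without mitochondrial genes or by the upper quartile. The helicase-like subunits RUVBL2 and RUVBL1 changed by -0.38 and -0.37 and the prefoldin-like PDRG1 by -0.33, while WDR92, an adaptor of the complex, rose by 0.46. In the cytosolic HSP70 and HSP90 system, which acts before and beside TRiC, 14 of 18 genes fell and 0 rose, against 20.3% and 22.9% of all tested genes (34.7% and 16.3% of the abundant ones), with a list median of -0.34. HSPH1, STIP1, AHSA1 and HSP90AA1 had the smallest adjusted p there, with log2 fold changes of -0.66 to -0.52. HSF1, the heat shock factor that induces chaperone genes, changed by -0.30 and MYC by -0.47, both past the test (HSF1 not without KD or SCR sample 5), while HSF2 had 9.72 ± 0.423 RPM in KD and 9.26 ± 1.07 RPM in SCR (limma adjusted p = 0.639).

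**Figure D4:**
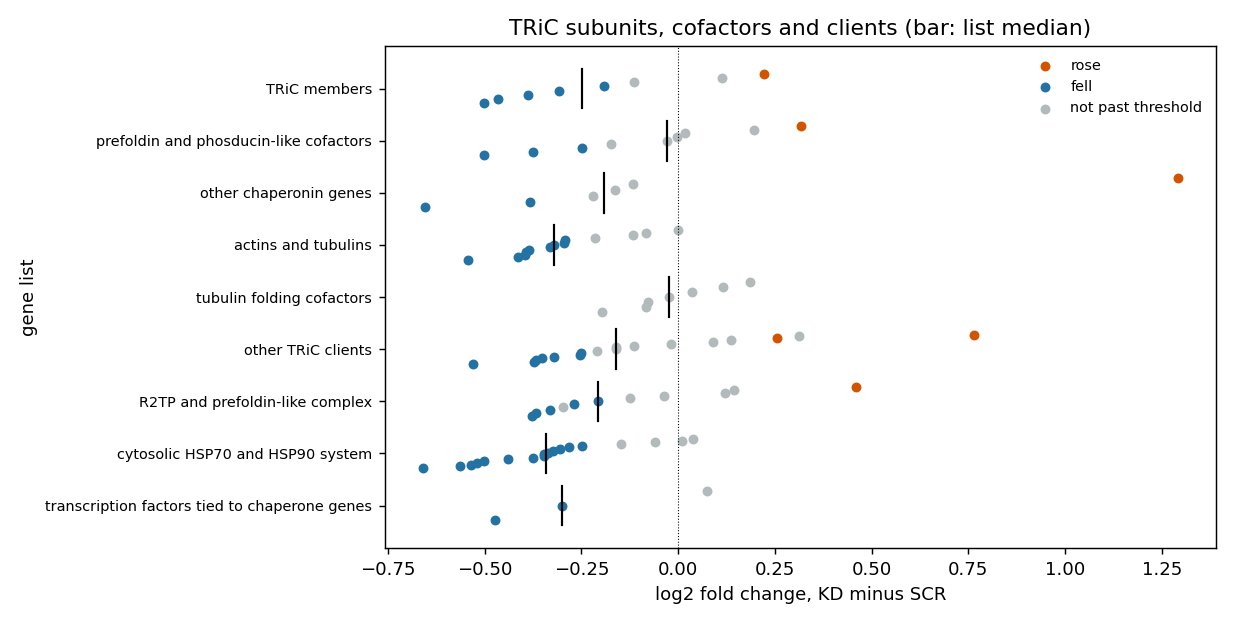
log2 fold change, KD minus SCR, of each tested gene of the TRiC subunits and of 8 lists of related genes, 1 row a list, with genes that rose in orange, that fell in blue and that did not pass in grey; the black bar is the list median. The medians are -0.25 for the subunits, -0.32 for actins and tubulins and -0.02 for the tubulin folding cofactors.

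The tested genes most like the mean subunit profile were MYCL, MYEOV, ZNF524, OSGIN2 and DNAJC9. They are the closest of all tested genes, so a close match is built into the choice. MYEOV and DNAJC9 fell (log2 fold changes -0.20 and -0.22), and both calls were lost without KD sample 5 or SCR sample 4 or 5. MYCL, ZNF524 and OSGIN2 did not pass the test. Likeness was the root mean square difference of log2 values over the 6 samples after each gene's own mean was taken off, and it was 0.00755 for MYCL and 0.0171 for DNAJC9. By the same measure, against the mean of the other 7 subunits, CCT6A was the closest subunit with 0.0193 and CCT7 the farthest with 0.244.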

How the data were processed

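The authors deposited 1 table of log2 values for 6 samples, read here as log2 of RPM plus an offset of 1e-04, since every column had its floor there; no label states the scale. Partek and Bowtie, and the build hg38, are named in the submitters' processing notes, but the positions are not those of GRCh38. RPM was had by undoing the log. Depth came from the step between low values, of which 77.9% to 80.3% lay within 0.02 reads of a whole number, so no count model was run. A symbol at several loci (1192) had equal values and was used once.

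Genes that averaged 1 RPM or more were compared, KD against SCR, with limma 3.58.1 (R 4.3.3; lmFit, eBayes with trend; two-sided, Benjamini-Hochberg) on the deposited log2 values, without covariates, and tested on simulated data. Transcript lengths came from GENCODE 29. Figures used matplotlib 3.10.9.

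The members and lists were chosen with earlier results of these data known. Named are ALDH1B1, all subunits, each one's nearest tested neighbours, up to 4 genes per list by adjusted p (1 of them is not reported here), and the 5 most similar profiles; motifs, printed promoters, the 50 RPM level and other named list members were chosen after values were seen.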

Additional observations from a re-analysis of the deposited data

How the results depend on the processing

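The analysis was repeated under 16 alternatives (filter, pseudocount, 4 scalings, 2 variance priors, the replicate block, and 6 with 1 sample left out). ALDH1B1, TCP1, CCT2, CCT3 and CCT5 kept direction and call in all of them. CCT4 had 0.17 (adjusted p = 0.0237) scaled without mitochondrial genes and 0.16 (adjusted p = 0.0209) under quantile normalization, so that 2 subunits rose there. Without a variance trend CCT6A (-0.19) and CCT7 (0.22) had adjusted p = 0.0855 and 0.058, and 0 subunits rose. Same-numbered samples did not deviate alike from their group means (correlations -0.07, -0.08 and -0.17), which does not settle whether they were paired. With the replicate block CCT6A (-0.19) and CCT7 (0.22) had adjusted p = 0.146 and 0.0853, 0 subunits rose, and 5285 genes were called against 6301. With 1 sample left out, log2 fold changes ran from -0.21 to -0.16 for CCT6A and from 0.20 to 0.25 for CCT7, and 0 to 1 subunits rose. With exon unions as lengths 0 subunits kept their rank per length in SCR, where 8 is the full number. The summed level was 86.2% to 90.1% of control with 1 sample left out and up to 90.8% under other scalings. Of 52 other named genes 32 kept their call in all alternatives, and 0 reversed. The cause of these shifts was not tested. Each subunit value rests on 2323 reads or more.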
